A study of Mus musculus with 12 samples.

Results

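Glutathione S-transferases (GST) and UDP-glucuronosyltransferases (UGT) were examined in the liver of mice that lack OXR1A and of wild-type mice. Genes were taken by symbol: Gst followed by the letter of a cytosolic or kappa class (a, k, m, o, p, s, t or z) and a digit, or Ugt1, Ugt2 or Ugt3. The rule found 41 of the 18560 genes in the table, 21 GST and 20 UGT genes, and none of them had a sigma-class symbol. Of the 41, 34 were expressed, that is, at 1 FPKM or more (fragments per kilobase of transcript, scaled to the mapped fragments of the library) in at least 3 libraries: 19 GST and 15 UGT genes. At 0.1 FPKM the count was 39 and at 5 FPKM it was 32. Gsto2, Gstt4, Ugt1a10, Ugt1a2, Ugt1a7c, Ugt2a1 and Ugt2a2 did not reach the threshold and were not tested. Just inside it lay Ugt2b38 and Ugt2b37, with mean levels of 0.931 and 2.10 FPKM over the 12 libraries, and just outside lay Ugt1a10, at up to 1.34 FPKM and over 1 FPKM in 2 libraries.

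The study compared 4 groups of livers at an age of 12 months, each with 3 RNA sequencing libraries: OXR1A-/- (knockout) males, wild-type males, OXR1A-/- females and wild-type females. OXR1A is an isoform made from Oxr1, a gene for resistance to oxidative damage, and the series title names fatty liver in males that lack it. The labels give no strain, no construct and do not say whether the 3 libraries of a group are from different mice. The spread behind each p-value is that between these libraries, and it may be technical.

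GST enzymes join glutathione to electrophilic compounds, among them products of lipid peroxidation and many activated carcinogens, and so make them harmless and ready for export. In mammals the cytosolic enzymes fall into classes (alpha, mu, pi, theta, omega and zeta here), and the kappa enzyme sits in mitochondria and peroxisomes. UGT enzymes sit in the endoplasmic reticulum and transfer glucuronic acid from UDP-glucuronic acid to bilirubin, steroid hormones, bile acids and drugs. The Ugt1a enzymes come from 1 locus in which alternative leading exons are spliced to a shared set of later exons, while each Ugt2b enzyme has a gene of its own. The Ugt3a enzymes use other UDP sugars. Several of these genes are known to differ between male and female mouse liver, and many alpha, mu and pi GST genes are known targets of NRF2, the transcription factor of the antioxidant response.

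The members lay in clusters. By the RefSeq annotation of GRCm38.p6, the 7 mu genes lay together on chromosome 3 (chr3:107895854-108045179), the 10 Ugt2a and Ugt2b genes on chromosome 5 (chr5:86889770-87490871), the 4 theta genes on chromosome 10 and the 8 Ugt1a genes on chromosome 1. Paralogs of a cluster share sequence, and reads from a shared stretch can be assigned to either gene. Of the windows of 100 bases in the GENCODE M21 transcript, 52.8% of those in Gstp1 and 54.6% of those in Gstp2 occurred in another member, and among the Ugt1a genes the share ran from 39.4% for Ugt1a7c to 71.5% for Ugt1a6b. The share was 19.8% for Gsta1, all of it with Gsta2, 24.2% for Ugt2b38, 24.7% for Ugt2b5, 1.06% for Ugt2b37, 3.80% for Gstm3 and 0% for 19 of the 41 members. With windows of 50 bases it was 44.6% for Gsta1, 44.8% for Gsta2, 37.4% for Ugt2b38, 41.7% for Ugt2b5, 18.3% for Ugt2b37 and 15.8% for Gstm3. The division of reads within the pi pair, Ugt1a, Gsta1 and Gsta2, and Ugt2b5, Ugt2b37 and Ugt2b38 is therefore uncertain, and to a lesser degree that among Gstm1, Gstm3 and Gstm6.

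Promoters were available for 37 of the 41 members in the RefSeq table for GRCm38.p6. The 250 bases before the transcription start are printed for a few of them, picked for the reason given with each set. Other genes with plain differences below, such as Ugt1a5, Ugt2b1 and Gstt3, are not printed. The pi genes come first, because Gstp1 had the largest male excess among the abundant members and lies beside its near-copy Gstp2. Capitals mark matches to TGANNNNGC, the core of the antioxidant response element, or to TTCNNNGAA, the STAT5 palindrome, on either strand.
Gstp1 chr19:4037913-4038162 minus strand: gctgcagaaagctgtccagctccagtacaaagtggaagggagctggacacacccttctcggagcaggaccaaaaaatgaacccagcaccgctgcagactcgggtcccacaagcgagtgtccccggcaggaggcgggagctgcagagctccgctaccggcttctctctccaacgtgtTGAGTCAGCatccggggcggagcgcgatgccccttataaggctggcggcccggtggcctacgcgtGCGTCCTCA
Gstp2 chr19:4042222-4042471 minus strand: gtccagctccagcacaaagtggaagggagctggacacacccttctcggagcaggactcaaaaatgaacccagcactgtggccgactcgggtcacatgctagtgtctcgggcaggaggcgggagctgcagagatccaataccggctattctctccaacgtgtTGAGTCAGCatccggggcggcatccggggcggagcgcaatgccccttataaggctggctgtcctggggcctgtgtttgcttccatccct
Both pi promoters held TGAGTCAGC, which began 74 bases before the start of Gstp1 and 89 bases before that of Gstp2, and the 2 windows were 78.1% identical in a global alignment. Gstp1 had another match on the opposite strand 9 bases before its start.

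The next set is shown because closely similar Ugt2b promoters belonged to genes with opposite sex differences. Neither motif matched in these windows. In the lines for Ugt2b37 and Ugt2b5, capitals instead mark bases with no identical partner in Ugt2b38 within the overlap of an alignment with free ends.
Ugt2b38 chr5:87424204-87424453 minus strand: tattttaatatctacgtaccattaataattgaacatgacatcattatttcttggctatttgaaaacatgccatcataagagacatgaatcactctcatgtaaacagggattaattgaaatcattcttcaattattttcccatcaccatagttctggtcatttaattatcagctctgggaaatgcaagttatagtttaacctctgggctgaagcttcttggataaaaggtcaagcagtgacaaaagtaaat
Ugt2b37 chr5:87254789-87255038 minus strand: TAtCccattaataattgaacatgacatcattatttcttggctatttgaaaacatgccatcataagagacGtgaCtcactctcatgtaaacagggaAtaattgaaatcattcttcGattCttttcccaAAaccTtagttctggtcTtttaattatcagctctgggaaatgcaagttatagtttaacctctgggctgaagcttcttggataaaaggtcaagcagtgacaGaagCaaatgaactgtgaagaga
Ugt2b5 chr5:87140341-87140590 minus strand: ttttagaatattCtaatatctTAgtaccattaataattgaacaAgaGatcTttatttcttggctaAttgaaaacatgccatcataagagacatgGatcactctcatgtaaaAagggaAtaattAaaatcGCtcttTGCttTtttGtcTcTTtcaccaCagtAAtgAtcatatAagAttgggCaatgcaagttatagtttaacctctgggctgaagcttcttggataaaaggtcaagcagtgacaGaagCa
Over 236 overlapping positions, Ugt2b37 was identical to Ugt2b38 at 94.1% and mismatched at 14. Over 249 positions, Ugt2b5 was identical to Ugt2b38 at 85.1%, with 28 mismatches and 9 gapped positions.

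Gstm3 and Gsta1 are shown because knockout male 2 stood furthest above all other libraries in these genes. Capitals again mark the antioxidant and STAT5 letters.
Gstm3 chr3:107969175-107969424 minus strand: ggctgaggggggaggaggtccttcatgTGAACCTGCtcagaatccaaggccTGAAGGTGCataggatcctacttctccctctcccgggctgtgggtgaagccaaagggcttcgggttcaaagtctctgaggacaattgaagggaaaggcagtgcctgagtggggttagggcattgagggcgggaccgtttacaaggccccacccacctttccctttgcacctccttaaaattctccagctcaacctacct
Gsta1 chr9:78230419-78230668 plus strand: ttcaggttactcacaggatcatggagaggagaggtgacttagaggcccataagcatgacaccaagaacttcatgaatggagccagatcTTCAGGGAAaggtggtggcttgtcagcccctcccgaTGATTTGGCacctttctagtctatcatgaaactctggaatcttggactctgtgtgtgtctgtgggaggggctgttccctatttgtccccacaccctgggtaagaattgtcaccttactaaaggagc
Gstm3 held 2 matches to the antioxidant core and Gsta1 held 1, together with 1 palindrome. Over all members the antioxidant core was found in 15 of 37 promoters (40.5%), against 35.1% of all 27025 promoters in the table, and the STAT5 palindrome in 5.4% against 7.2%. The dioxin response core GCGTG was found in 13.5% of member promoters against 28.2% of all, and GTTAAT, part of the HNF1 motif, in 18.9% against 6.5%. Both strands were read, and overlaps with other motifs were allowed. A match describes the letters only.

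Facts of the libraries bear on what follows. FPKM summed to between 526203 and 667434 per library, and the step between low FPKM values put the depth relative to wild-type female 1 between 0.990 and 1.48. These depths are rough estimates: that of 1.48, for wild-type male 2, rested on 19 of 189 values. Without read totals, no counting interval could be given. The defining hepatocyte markers were high in every library, with a summed level of 46755 to 49445 FPKM in OXR1A-/- males, 56317 to 64403 in wild-type males, 59334 to 61076 in OXR1A-/- females and 54944 to 61434 in wild-type females. Knockout male 2 was the highest library for 22.3% of all tested genes and stood apart from its group. Wild-type male 2 had the strongest slope of FPKM on transcript length, -0.212 against -0.0906 to 0.121 in the others. Traces of the other sex's transcripts were present in 3 libraries: Xist reached 0.82 FPKM in knockout male 3, Eif2s3y 1.89 FPKM in wild-type female 1 and Ddx3y 0.57 FPKM in knockout female 1. Oxr1, counted over all its isoforms, had 25.0, 22.9 and 22.1 FPKM in OXR1A-/- males, 23.2, 12.1 and 18.4 in wild-type males, 20.1, 19.7 and 20.96 in OXR1A-/- females and 17.4, 17.5 and 20.6 in wild-type females, and so does not check the loss of the OXR1A isoform.

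GST transcripts were more abundant than UGT transcripts in every group. Summed over the 21 GST genes, OXR1A-/- males ranged from 4043 to 8467 FPKM with a median of 4386, and wild-type males from 5506 to 6416 with a median of 5619. OXR1A-/- females ranged from 3819.7 to 4289 FPKM and wild-type females from 3703 to 4134 FPKM. The 20 UGT genes summed to 2052 to 2248 FPKM in OXR1A-/- males, 1737 to 2261 in wild-type males, 1722 to 1989 in OXR1A-/- females and 1747 to 1903 in wild-type females. As a share of all FPKM, GST genes made up 0.730% to 1.56% in OXR1A-/- males, 0.961% to 0.996% in wild-type males, 0.710% to 0.753% in OXR1A-/- females and 0.688% to 0.761% in wild-type females. The wide range of the OXR1A-/- males came from knockout male 2, which had 8467 FPKM of GST transcripts while the other 2 knockout males lay below all wild-type males.

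**Figure D1:**
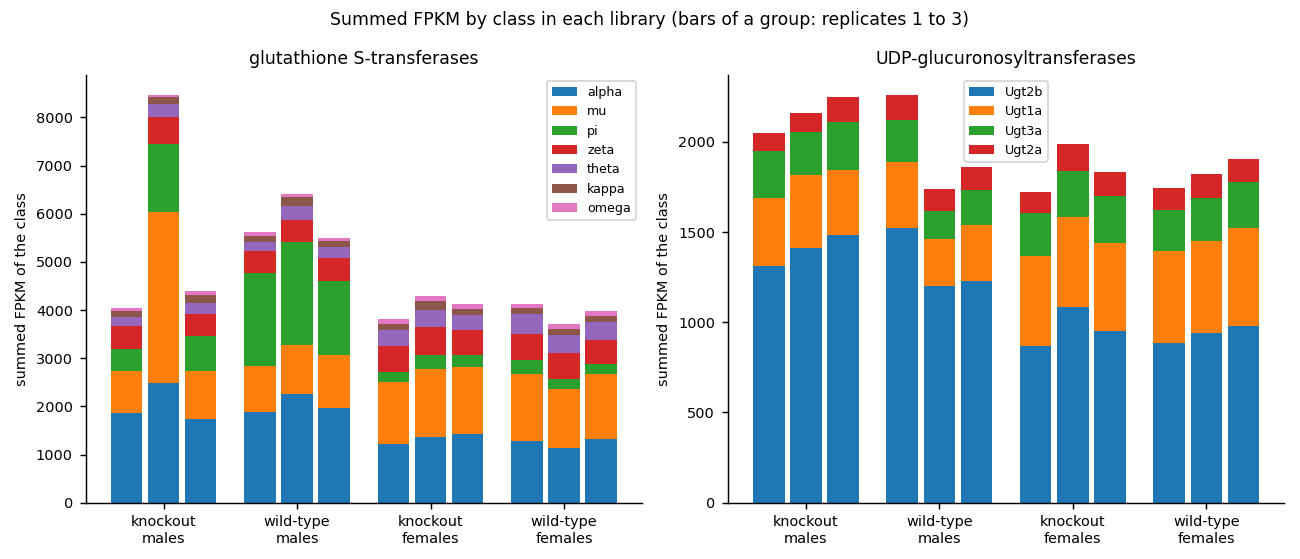
Summed FPKM of each GST class (left) and UGT family (right), stacked for each of the 12 libraries with 3 bars a group in replicate order. The pi class is tall in the wild-type males, between 1530.5 and 2143 FPKM, and short in all females, at 284 FPKM or less, and the mu class of knockout male 2 reaches 3546 FPKM.

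The pi and alpha classes carried the higher GST total of wild-type males. The pi sum was 452 to 1416 FPKM in OXR1A-/- males, 1530.5 to 2143 in wild-type males, 205 to 284 in OXR1A-/- females and 208 to 284 in wild-type females, so the 2 male groups did not overlap each other or the females. The alpha sum was 1727 to 2481 FPKM in OXR1A-/- males, 1890.2 to 2263 in wild-type males, 1227 to 1422 in OXR1A-/- females and 1127 to 1326 in wild-type females. The mu and theta sums ran the other way between the sexes in wild type, with 942 to 1102 FPKM of mu transcripts in males against 1227 to 1392 in females, and 205 to 281 FPKM of theta transcripts in males against 356 to 404 in females. Among the UGT families, Ugt2b was higher in wild-type males (1201 to 1522 FPKM) than in wild-type females (887.6 to 979 FPKM), and Ugt1a was lower in wild-type males (259 to 369.5 FPKM) than in wild-type females (507 to 545 FPKM).

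**Figure D2:**
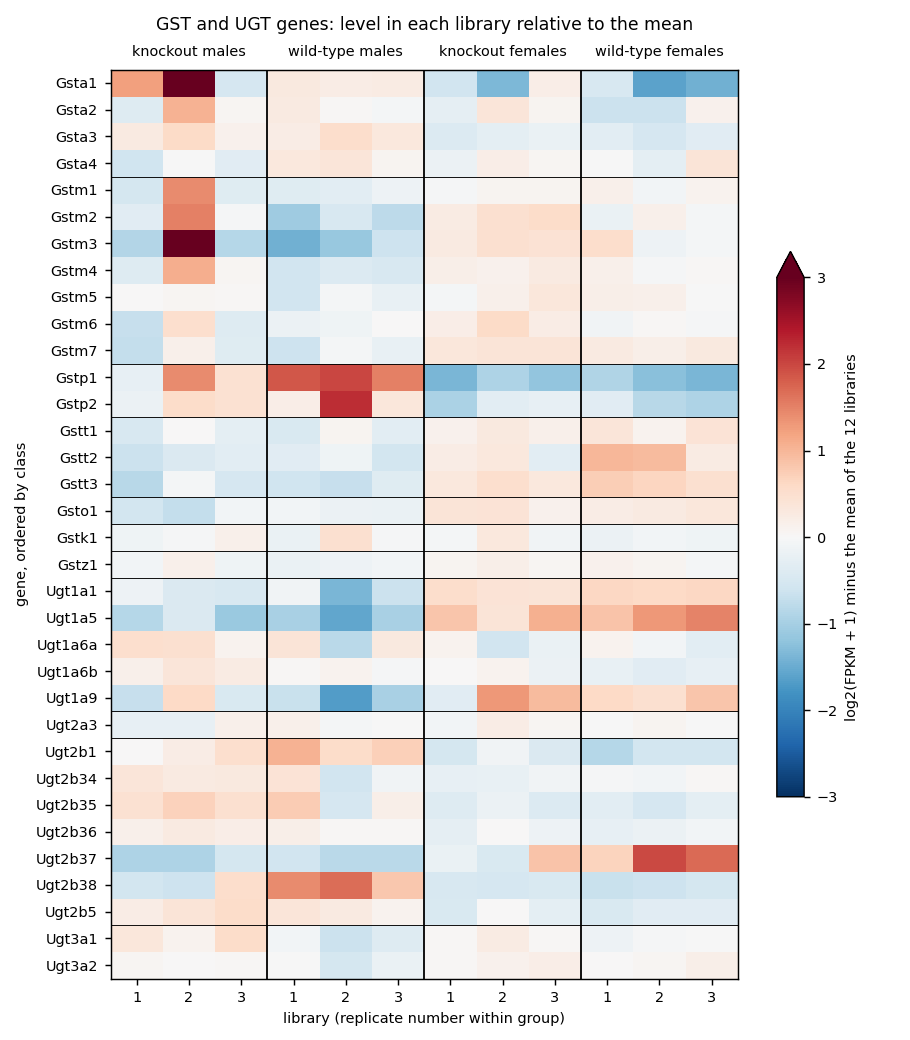
Level of the 34 expressed genes in each library, as log2(FPKM + 1) minus the gene's mean over the 12 libraries, with genes ordered by class and red for higher. Gstp1 and Ugt2b38 are red in the wild-type males, Ugt1a5 and Ugt2b37 are red in the wild-type females, and Gsta1 and Gstm3 have the darkest red in knockout male 2.

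The comparison of wild-type males with wild-type females gives the sex difference that the knockout values are set beside. Of the 34 expressed members, 12 were called by limma (adjusted p under 0.05 over all 11514 tested genes), against 13.4% of all genes. Gsta3, Gstp1, Gstp2, Ugt2b1, Ugt2b38 and Ugt2b5 were higher in males, where the background was 2.31% of all genes, and Gstt2, Gstt3, Ugt1a1, Ugt1a5, Ugt1a9 and Ugt2b37 were lower, where it was 11.1%. The median difference was -0.13 for the members and -0.21 for all genes on the log2(FPKM + 1) scale, and scaling the libraries by median ratios brought the median of all genes to -0.00202. That scaling turned the split of all called genes from 266 higher and 1273 lower into 552 higher and 508 lower, and that of the members from 6 and 6 into 9 and 5. The 3 male and 3 female values did not overlap for 25 of the 34 members, against 40.2% of all genes. Of these, 9 were higher in males, against 6.04% of all genes, and 16 lower, against 34.1%. At an unadjusted p under 0.05 there were 19 members, against 32.8% of all genes.

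The pi class differed most. Gstp1, at chr19:4035411-4037912, encodes the main pi enzyme, which is also known to bind and hold back JNK, and it had 1940.0, 2121 and 1525 FPKM in wild-type males, against 282, 222 and 206 FPKM in wild-type females. The lowest male library was above the highest female one by several fold, and the ratio of means was 7.87 (log2 difference 2.97 ± 0.33 SE, adjusted p = 1.74e-04). Gstp2, at chr19:4040288-4042221, had 4.63, 22 and 5.25 FPKM in wild-type males, against 2.87, 1.76 and 1.59 FPKM in wild-type females. Wild-type male 2 stood far above the other 2 males, and the log2 difference was 1.62 ± 0.45 SE, adjusted p = 0.0363. It was not called without wild-type male 2, at 0.97, nor without wild-type female 1, 2 or 3, at 1.80, 1.56 and 1.51. Gstp2 was called in 16 of 24 alternative analyses and Gstp1 in all 24.

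Of the alpha class, 1 of 4 genes was called. Gsta3, whose enzyme in mouse detoxifies the epoxide of aflatoxin, had the highest mean level of all 41 members over the 12 libraries, with 1699, 2083 and 1804 FPKM in wild-type males, against 1156, 1017 and 1147 FPKM in wild-type females. Every male library was above every female one, with a ratio of 1.68 (log2 difference 0.75 ± 0.14 SE, adjusted p = 0.00589). Gsta1, Gsta2 and Gsta4 were not called. None of the 7 mu genes was called either; Gstm1, the most abundant of them, had 784, 811 and 906 FPKM in wild-type males, against 1116, 958 and 1093 FPKM in wild-type females, without overlap between the sexes. Without knockout male 2, a library that enters this comparison only through the shared estimate of spread, 18 members were called, among them Gstm2, Gstm3, Gstm4 and Gstm7 as lower in males.

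Of the 3 expressed theta genes, 2 were called, both lower in males. Gstt3 had 25.4, 24.0 and 30.2 FPKM in wild-type males, against 65.7, 61.8 and 55.2 FPKM in wild-type females. All males lay below all females, 2.29-fold lower by the means (log2 difference -1.17 ± 0.18 SE, adjusted p = 0.00166). Gstt2 had 23.8, 27.4 and 20.3 FPKM in wild-type males, against 61.5, 59.5 and 36.3 FPKM in wild-type females, and wild-type female 3 lay well below the other 2 females without reaching the males. It was 2.20-fold lower in males (log2 difference -1.08 ± 0.22 SE, adjusted p = 0.00973). Gstt1, the most abundant theta gene, which in mouse acts on small halogenated compounds, had 156, 229 and 173 FPKM in wild-type males, against 277, 234 and 286 FPKM in wild-type females, without overlap but not called. Nor were Gsto1 of the omega class, Gstk1 of the kappa class or Gstz1 of the zeta class, whose enzyme takes part in tyrosine breakdown. Gstk1 had 118, 190.2 and 133 FPKM in wild-type males, against 121, 129 and 124 FPKM in wild-type females, with overlap. Gstz1 had 441, 455 and 480.5 FPKM in wild-type males, against 553, 541 and 488 FPKM in wild-type females, with every male just below every female. Gsto1 had 78.3, 73.3 and 72.6 FPKM in wild-type males, against 97.1, 100.1 and 106 FPKM in wild-type females, again with every male below every female.

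Among the Ugt1a genes, 3 of 5 were called, all lower in males. Ugt1a1, the enzyme that conjugates bilirubin, had 158, 65.0 and 108 FPKM in wild-type males, against 258, 256 and 261 FPKM in wild-type females. The females were tightly grouped and above every male, and the level was 2.34-fold lower in males (log2 difference -1.31 ± 0.24 SE, adjusted p = 0.00548). Ugt1a5 had 18.1, 11.8 and 18.1 FPKM in wild-type males, against 67.0, 92.0 and 105 FPKM in wild-type females. Males were 5.503-fold lower with no overlap (log2 difference -2.39 ± 0.25 SE, adjusted p = 1.02e-04), and the call held in all 24 alternatives. Ugt1a9, an enzyme for phenols and fatty acids, had 10.9, 4.95 and 8.64 FPKM in wild-type males, against 27.6, 25.5 and 32.7 FPKM in wild-type females. It was 3.51-fold lower in males, again without overlap (log2 difference -1.74 ± 0.42 SE, adjusted p = 0.0215), and lost its call without wild-type male 2 or any 1 of the wild-type females (log2 differences -1.82 to -1.46). The 2 forms of Ugt1a6 were not called.

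The Ugt2b genes went in both directions. Ugt2b1 had 236, 169 and 187 FPKM in wild-type males, against 62.7, 77.4 and 78.0 FPKM in wild-type females. Males were 2.72-fold higher with no overlap (log2 difference 1.42 ± 0.17 SE, adjusted p = 4.11e-04). Ugt2b5, the most abundant UGT gene, had 563, 528 and 467 FPKM in wild-type males, against 316, 341 and 343 FPKM in wild-type females. It was 1.56-fold higher in males, and every male was above every female (log2 difference 0.63 ± 0.14 SE, adjusted p = 0.0137); without wild-type female 1 the difference was 0.60 and not called. Ugt2b38, at chr5:87409939-87424203, had 3.28, 4.11 and 1.80 FPKM in wild-type males, against 0, 0.04 and 0.11 FPKM in wild-type females. It was near or at 0 in all females and above 1 FPKM in all males, and its log2 difference was 1.91 ± 0.28 SE, adjusted p = 0.00159; the females are too low for a meaningful fold. Ugt2b37, at chr5:87240492-87254788, had 0.59, 0.35 and 0.34 FPKM in wild-type males, against 2.76, 8.29 and 6.70 FPKM in wild-type females. Here the females were all above the males, which were 13.9-fold lower (log2 difference -2.18 ± 0.36 SE, adjusted p = 0.00269). Calls of Ugt2b37 and Ugt2b38 held in all 23 alternatives that kept them, among them that with no filter. The filter on a mean of 5 FPKM left both out. Ugt2b38 reached 1 FPKM in 4 libraries, all male, and Ugt2b37 in 5, all female. Both genes thus passed the main filter only through the sex in which they were high. Their promoters are the pair printed above with 14 mismatches in 236 positions. The remaining Ugt2b genes were not called. Ugt2b36 had 333 to 369 FPKM in wild-type males and 276 to 309 FPKM in wild-type females, without overlap. Ugt2b34, at 130.3 to 260.3 FPKM in wild-type males and 185 to 200.4 FPKM in wild-type females, overlapped, and so did Ugt2b35, at 36.8 to 90.0 FPKM in wild-type males and 36.6 to 42.3 FPKM in wild-type females. Without the 3 trace-carrying libraries named above, 8 of the 12 calls remained; those of Gstp2, Gstt2, Ugt1a1 and Ugt2b5 were lost.

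Ugt2a3, Ugt3a1 and Ugt3a2 completed the UGT genes and were not called between wild-type males and females. Ugt2a3 had 139, 119 and 124 FPKM in wild-type males, against 122.9, 131 and 124 FPKM in wild-type females. Ugt3a2, the more abundant of the Ugt3a pair, had 175, 121 and 151 FPKM in wild-type males, against 178, 183 and 196 FPKM in wild-type females. Ugt2a3 overlapped between the sexes, and in Ugt3a2 the highest male lay just below the lowest female. Markers of some cell types moved in this comparison as well. The summed Kupffer cell markers were 60.4 to 94.9 FPKM in wild-type males and 166 to 277 in wild-type females. Of these markers 5 of 6 were called lower, as were 5 of 6 endothelial and 3 of 6 stellate markers, against 11.1% of all genes. None of 6 hepatocyte and 4 tested cholangiocyte markers was called. Of 4 tested red cell markers 1 was called higher, against 2.31% of all genes, and 0 lower. In bulk tissue, fewer cells of a type and less RNA per cell cannot be told apart, and the part of these markers in the GST and UGT differences was not tested. No marker of these lists was at 0 in all libraries.

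**Figure D3:**
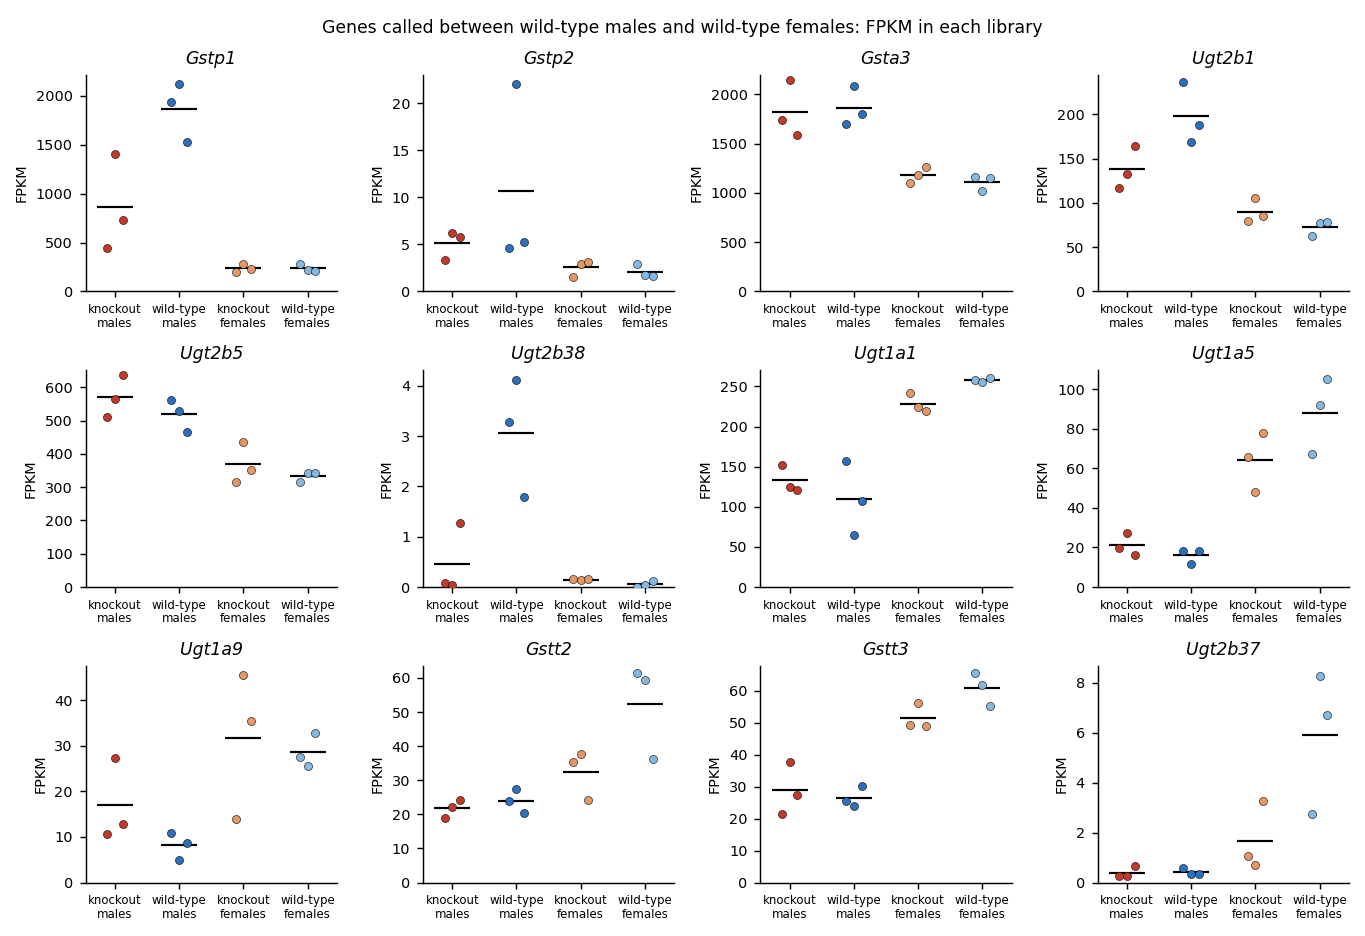
FPKM of the 12 members called between wild-type males and wild-type females, 1 point a library and a line at each group mean, in the order knockout males, wild-type males, knockout females, wild-type females. The knockout males sit below the wild-type males for Gstp1, Ugt2b38 and Ugt2b1, while the 2 female groups overlap in every panel but those of Ugt1a1, Ugt2b1 and Ugt2b38.

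In males, the knockout was compared with wild type, the contrast named in the series title. Of the 34 members, 2 were called, Ugt3a1 as higher and Ugt2b38 as lower in OXR1A-/- males, against 2.55% of all genes (2.13% higher and 0.426% lower). At an unadjusted p under 0.05 there were 8 members, against 23.9% of all genes. The values of the 2 groups did not overlap for 10 members, against 23.7% of all genes. Of these 10, 6 were higher in OXR1A-/- males, against 21.2% of all genes, and 4 were lower, Gsta4, Gstp1, Ugt2b1 and Ugt2b38, against 2.49% of all genes. The median difference of all genes was 0.19 and that of the members 0.13. Scaling by median ratios brought the median of all genes to 0.01 and turned the called genes from 245 higher and 49 lower into 71 higher and 81 lower.

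Ugt2b38 was lower in OXR1A-/- males. It had 0.08, 0.03 and 1.28 FPKM in OXR1A-/- males and 3.28, 4.11 and 1.80 FPKM in wild-type males. Knockout males 1 and 2 were close to 0, like the females, and knockout male 3 lay between them and the wild-type males without reaching them. The log2 difference was -1.53 ± 0.28 SE, adjusted p = 0.0217 (limma), and no fold is given, since most of the knockout signal is that of knockout male 3. The call was lost without knockout male 1 (log2 difference -1.36), knockout male 2 (-1.33), wild-type male 1 (-1.47) or wild-type male 2 (-1.34), and it held in 17 of 23 alternatives with adjusted p from 0.0023 to 0.208. Without knockout male 3, which carried the Xist trace, the difference was -1.90. Ugt2b38 passed the filter through the wild-type males, where it is high, and with no filter it was still called. Its level is low, and reads of the windows it shares with Ugt2b5 and Ugt2b37 could be assigned to either gene.

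Ugt3a1, at chr15:9279822-9315038, was higher in OXR1A-/- males. In mouse its enzyme is known to use UDP-N-acetylglucosamine. It had 73.1, 62.9 and 85.7 FPKM in OXR1A-/- males and 54.9, 37.0 and 44.1 FPKM in wild-type males, and all 3 knockout males lay above the wild-type males. The means were 73.9 ± 11.4 FPKM in OXR1A-/- males and 45.3 ± 8.99 FPKM in wild-type males (SD, n = 3 each), a ratio of 1.63 (log2 difference 0.70 ± 0.15 SE, adjusted p = 0.0443, limma). The call held in 5 of 24 alternatives, with adjusted p from 0.026 to 0.272. Under median-ratio scaling the difference was 0.47 with an adjusted p of 0.214, and leaving out any 1 of the 12 libraries except wild-type male 1 ended the call, with differences of 0.57 to 0.81. Its neighbour Ugt3a2 had 182, 177 and 179.7 FPKM in OXR1A-/- males and 175, 121 and 151 FPKM in wild-type males, and its lowest knockout male was just above its highest wild-type male without a call.

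Gstp1 was lower in every knockout male than in any wild-type male, but short of the threshold. It had 449, 1409.5 and 726 FPKM in OXR1A-/- males and 1940.0, 2121 and 1525 FPKM in wild-type males. Knockout male 1 was lowest and knockout male 2 highest within its group. The means were 861 ± 495 FPKM in OXR1A-/- males and 1862 ± 306 FPKM in wild-type males (SD, n = 3 each), with a log2 difference of -1.26 ± 0.33 SE, adjusted p = 0.0603 (limma). It was called in 3 of 24 alternatives: without knockout male 2 (-1.69, adjusted p = 0.0128), without both knockout male 2 and wild-type male 2 (-1.59, adjusted p = 0.0245), and with the length trend removed in all 12 libraries (-1.18, adjusted p = 0.0381). Over all alternatives the adjusted p ran from 0.0128 to 0.297. Its copy Gstp2 had 3.35, 6.25 and 5.74 FPKM in OXR1A-/- males and 4.63, 22 and 5.25 FPKM in wild-type males, which overlapped. Gsta4, whose enzyme acts on the lipid peroxidation product hydroxynonenal and which was picked out after its values were seen, had 50.2, 75.0 and 59.8 FPKM in OXR1A-/- males and 95.0, 97.2 and 80.7 FPKM in wild-type males. Every knockout male was below every wild-type male, and the difference was not called.

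Ugt2b1 had 116, 133 and 164 FPKM in OXR1A-/- males and 236, 169 and 187 FPKM in wild-type males. The highest knockout male was just below the lowest wild-type male, and the log2 difference was -0.52 ± 0.17 SE, adjusted p = 0.113 (limma), not called. The other members with a sex difference in wild type were not called between OXR1A-/- and wild-type males. Gsta3 had 1736, 2144 and 1587 FPKM in OXR1A-/- males and 1699, 2083 and 1804 FPKM in wild-type males. Ugt2b5 had 510.4, 564 and 636 FPKM in OXR1A-/- males and 563, 528 and 467 FPKM in wild-type males. In both of these the groups overlapped. Ugt1a1 had 152, 125 and 121 FPKM in OXR1A-/- males and 158, 65.0 and 108 FPKM in wild-type males, with wild-type male 2 low. Ugt1a5 had 19.7, 27.1 and 16.4 FPKM in OXR1A-/- males and 18.1, 11.8 and 18.1 FPKM in wild-type males. Ugt1a9 had 10.7, 27.4 and 12.8 FPKM in OXR1A-/- males against 10.9, 4.95 and 8.64 in wild-type males. The groups overlapped in all 3 of these Ugt1a genes.

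The theta, omega, kappa and zeta genes were not called in males. Gstt2 had 19.0, 22.2 and 24.3 FPKM in OXR1A-/- males and 23.8, 27.4 and 20.3 FPKM in wild-type males. Gstt3 had 21.5, 37.7 and 27.4 FPKM in OXR1A-/- males and 25.4, 24.0 and 30.2 FPKM in wild-type males. Gstt1 had 156, 217 and 177 FPKM in OXR1A-/- males and 156, 229 and 173 FPKM in wild-type males. In the 3 theta genes the groups overlapped. Gsto1, whose enzyme reduces arsenic compounds, had 56.7, 50.6 and 78.3 FPKM in OXR1A-/- males and 78.3, 73.3 and 72.6 FPKM in wild-type males. Gstk1 had 124, 133 and 152 FPKM in OXR1A-/- males and 118, 190.2 and 133 FPKM in wild-type males. Both overlapped between genotypes, as did Ugt2a3, with 105, 104 and 139.6 FPKM in OXR1A-/- males and 139, 119 and 124 FPKM in wild-type males. Gstz1 had 481, 564 and 466 FPKM in OXR1A-/- males and 441, 455 and 480.5 FPKM in wild-type males and overlapped through knockout male 3. Ugt2b37, the female-high gene, stayed low in all 6 male libraries, at 0.25 to 0.65 FPKM in OXR1A-/- males and 0.34 to 0.59 FPKM in wild-type males.

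Markers of some cell types other than hepatocytes moved with this contrast. Summed Kupffer cell markers were 136 to 306 FPKM in OXR1A-/- males and 60.4 to 94.9 FPKM in wild-type males, with 4 of 6 called higher. The endothelial sum was 42.4 to 59.2 FPKM in OXR1A-/- males and 21.3 to 31.5 FPKM in wild-type males, with 3 of 6 called higher. Of the stellate markers 1 of 6 was called higher. Of all genes, 2.13% were called higher. Of 4 tested cholangiocyte and 4 tested red cell markers none was called. Their median log2 differences were 0.15 and -0.30, against 0.19 for all genes. Summed hepatocyte markers, at the levels given above, were lower in every OXR1A-/- male than in any wild-type male, with a median log2 difference of -0.43 over the 6 genes and none called. The part of these markers in the differences of Ugt2b38, Ugt3a1 and Gstp1 was not tested.

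**Figure D4:**
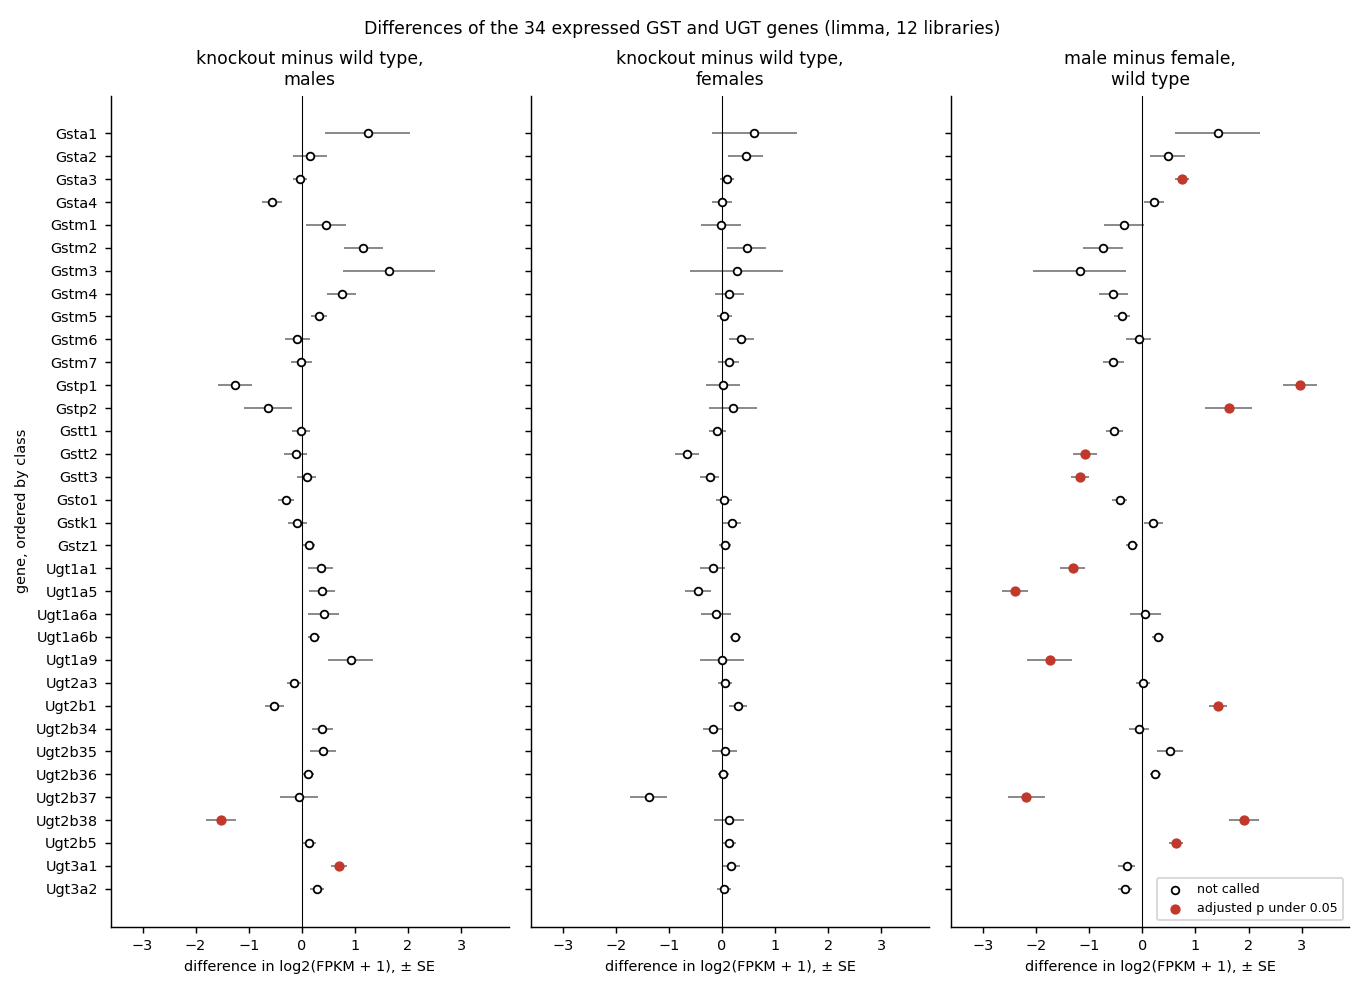
Log2(FPKM + 1) differences with their standard errors for the 34 expressed members in the male knockout, female knockout and wild-type sex comparisons (limma, 12 libraries), filled red where the adjusted p was under 0.05. The plot shows 2 red points in males, 0 in females and 12 between the wild-type sexes, with Gstp1 at 2.97 in the sex comparison and at -1.26 in the male knockout comparison.

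In females, no member was called between OXR1A-/- and wild type, where 0.0174% of all genes were (0.00869% higher and 0.00869% lower). At an unadjusted p under 0.05 there were 3 members, Ugt2b37, Gstt2 and Ugt1a6b, against 6.13% of all genes, and by no alternative analysis except array weights (1 member, Gstt2) was any called. The groups did not overlap for 9 members, against 17.6% of all genes. Of these, 7 were higher in OXR1A-/- females, against 9.22% of all genes, and 2 lower, against 8.42%. Among the 7 was Ugt2b38, at 0.13 to 0.16 FPKM in OXR1A-/- females and 0 to 0.11 FPKM in wild-type females. It was near 0 in all females and passed the filter only through male libraries. Ugt2b37 had 1.07, 0.72 and 3.25 FPKM in OXR1A-/- females and 2.76, 8.29 and 6.70 FPKM in wild-type females. Knockout female 3 was above wild-type female 1, so the groups overlapped, and the log2 difference was -1.38 ± 0.36 SE, adjusted p = 0.555 (limma). Gstt2 had 35.5, 37.8 and 24.1 FPKM in OXR1A-/- females and 61.5, 59.5 and 36.3 FPKM in wild-type females, where knockout female 2 was above wild-type female 3.

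The members called in males were not called in females. Ugt3a1 had 59.7, 69.3 and 59.0 FPKM in OXR1A-/- females and 51.8, 56.9 and 57.1 FPKM in wild-type females, and every knockout female was slightly above every wild-type female. Ugt2b38 had 0.15, 0.13 and 0.16 FPKM in OXR1A-/- females and 0, 0.04 and 0.11 FPKM in wild-type females, near 0 in all 6 libraries. Gstp1 had 204, 281 and 234 FPKM in OXR1A-/- females and 282, 222 and 206 FPKM in wild-type females, with overlap of the groups. Ugt2b1 had 79.5, 106 and 84.7 FPKM in OXR1A-/- females and 62.7, 77.4 and 78.0 FPKM in wild-type females, which did not overlap but were not called. Gsta3 had 1095, 1185 and 1258 FPKM in OXR1A-/- females and 1156, 1017 and 1147 FPKM in wild-type females. Ugt2b5 had 316, 436 and 352 FPKM in OXR1A-/- females and 316, 341 and 343 FPKM in wild-type females. In both of them the 2 female groups overlapped.

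The Ugt1a and remaining theta genes of females also showed no called difference. Ugt1a1 had 242, 224 and 219 FPKM in OXR1A-/- females and 258, 256 and 261 FPKM in wild-type females, all knockout females being below the wild-type females. Ugt1a5 had 65.7, 48.2 and 78.0 FPKM in OXR1A-/- females and 67.0, 92.0 and 105 FPKM in wild-type females. Ugt1a9 had 14.0, 45.5 and 35.4 FPKM in OXR1A-/- females and 27.6, 25.5 and 32.7 FPKM in wild-type females, and knockout female 1 was low there. Gstt3 had 49.2, 56.0 and 49.1 FPKM in OXR1A-/- females and 65.7, 61.8 and 55.2 FPKM in wild-type females. In these 3 the groups overlapped. Gstt1 had 238, 267 and 241 FPKM in OXR1A-/- females and 277, 234 and 286 FPKM in wild-type females. Gstp2 had 1.55, 2.96 and 3.15 FPKM in OXR1A-/- females and 2.87, 1.76 and 1.59 FPKM in wild-type females. Both overlapped as well.

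The most abundant genes of the remaining classes also overlapped between the female genotypes. Gsto1 had 109, 111 and 91.6 FPKM in OXR1A-/- females and 97.1, 100.1 and 106 FPKM in wild-type females. Gstm1 had 983, 1068 and 1059.9 FPKM in OXR1A-/- females and 1116, 958 and 1093 FPKM in wild-type females. Both stayed within a narrow range in all 6 female libraries. Gstk1 had 131, 171 and 127 FPKM in OXR1A-/- females and 121, 129 and 124 FPKM in wild-type females, with knockout female 2 highest. Gstz1 had 539, 576 and 528 FPKM in OXR1A-/- females and 553, 541 and 488 FPKM in wild-type females. Ugt2a3 had 118, 146 and 129 FPKM in OXR1A-/- females and 122.9, 131 and 124 FPKM in wild-type females, and its knockout females spanned the wild-type ones. Ugt3a2 had 178, 190.3 and 202 FPKM in OXR1A-/- females and 178, 183 and 196 FPKM in wild-type females, with little difference between the groups.

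The test of whether the knockout effect differed between the sexes called no member, against 0.0261% of all genes (0.0174% upwards and 0.00869% downwards), and 6 members had an unadjusted p under 0.05, against 9.03% of all genes. The male effect minus the female effect was -1.66 ± 0.40 SE, adjusted p = 0.325 (limma) for Ugt2b38. For Gstp1 it was -1.28 ± 0.46 SE, adjusted p = 0.54, and for Ugt2b1 it was -0.82 ± 0.24 SE, adjusted p = 0.456. Ugt2b38 was called only without knockout male 3, at -2.03 with an adjusted p of 0.0216, and its adjusted p reached 0.698 in other alternatives. A male effect of Ugt2b38 or Ugt3a1 past the threshold is therefore not shown to differ from the female one.

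Between OXR1A-/- males and OXR1A-/- females, 6 members were called, against 3.67% of all genes. Gsta3, Gstp1 and Ugt2b5 were higher in males (background 1.67%) and Gsto1, Gstt3 and Ugt1a5 lower (background 2.01%). At an unadjusted p under 0.05 there were 17 members, against 15.5% of all genes. The sexes did not overlap for 17 members, against 22.1% of all genes, 10 of them higher in males (10.1% of all genes) and 7 lower (12% of all genes). Gstp1 had 449, 1409.5 and 726 FPKM in OXR1A-/- males, against 204, 281 and 234 FPKM in OXR1A-/- females. Every male was above every female, at 3.595-fold by the means (log2 difference 1.70 ± 0.33 SE, adjusted p = 0.0139). Ugt1a5 had 19.7, 27.1 and 16.4 FPKM in OXR1A-/- males, against 65.7, 48.2 and 78.0 FPKM in OXR1A-/- females. It was 3.04-fold lower in males without overlap (log2 difference -1.56 ± 0.25 SE, adjusted p = 0.00416), and this call held in 23 of 24 alternatives.

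Gsta3 had a ratio of 1.54 (log2 difference 0.62 ± 0.14 SE, adjusted p = 0.0301) and Ugt2b5 a ratio of 1.55 (log2 difference 0.64 ± 0.14 SE, adjusted p = 0.0272). Their calls held in 11 and 17 of 24 alternatives. Gstt3 was 1.78-fold lower in males (log2 difference -0.84 ± 0.18 SE, adjusted p = 0.0215). Gsto1 had 56.7, 50.6 and 78.3 FPKM in OXR1A-/- males, against 109, 111 and 91.6 FPKM in OXR1A-/- females. It was 1.68-fold lower in males, with no overlap (log2 difference -0.76 ± 0.15 SE, adjusted p = 0.016), and between the wild-type sexes its log2 difference was -0.43 ± 0.15 SE, adjusted p = 0.0769. Without knockout female 1 only Ugt1a5 of the 34 was called; without knockout female 3, Gsto1 and Ugt1a5 were; without knockout female 2, or without knockout male 1, Gstp1, Ugt1a5 and Ugt2b5 were. Without knockout male 2 the calls of Gsta3 and Ugt2b5 were lost, and Gstm3, Gstm6 and Gstm7 were called lower in males, so that 6 of 7 calls were lower. Without knockout male 3 the calls of Gstt3 and Ugt2b5 were lost and Gsta1 was called. Gsta3 was also lost without wild-type male 3 or wild-type female 1. Without the 3 trace-carrying libraries named above, a setting chosen after the values were seen, Gsto1 alone was called.

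Ugt2b38 was not called between OXR1A-/- males and females. Its log2 difference was 0.25 ± 0.28 SE, adjusted p = 0.77, and it was -0.12 without knockout male 3, so the sign rests on that library, which also carried the Xist trace. Ugt2b1 differed by 0.60 ± 0.17 SE, adjusted p = 0.088 on the log2 scale and was not called. Ugt2b37 did not overlap between the sexes and was not called, with 0.25 to 0.65 FPKM in OXR1A-/- males and 0.72 to 3.25 FPKM in OXR1A-/- females. The wild-type and knockout sex comparisons use different libraries, and the test of their difference is the one given above for the knockout effects, which called no member.

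Knockout male 2 stood apart in genes of the mu and alpha classes. These genes, other than Gstm1, were picked out after their values were seen. Knockout male 2 was the highest of the 12 libraries for 9 of the 34 members, against 22.3% of all genes, a similar share. For 6 of them, Gsta1, Gsta2, Gstm1, Gstm2, Gstm3 and Gstm4, it was at least 1.5-fold above the next library, against 3.19% of all genes. In the other 11 libraries this held for 1 member at most, Gstp2 in wild-type male 2. Gstm3 had 20.1, 424 and 20.4 FPKM in OXR1A-/- males and 13.3, 16.7 and 24.3 FPKM in wild-type males. Knockout male 2 was 7.64-fold above the next highest library, a wild-type female at 55.5 FPKM, while the other 2 knockout males were in the range of the wild-type males. Gsta1 had 18.9, 113 and 5.03 FPKM in OXR1A-/- males and 9.47, 8.91 and 9.02 FPKM in wild-type males, with knockout male 2 at 5.96-fold the next library.

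Gstm1 had 699.5, 2699.6 and 786 FPKM in OXR1A-/- males and 784, 811 and 906 FPKM in wild-type males. Knockout male 2 was 2.42-fold above wild-type female 1, the next highest, and both other knockout males were at or near the bottom of the male range. Gstm2 had 54.8, 203 and 68.6 FPKM in OXR1A-/- males and 33.0, 49.7 and 40.3 FPKM in wild-type males. Gstm4 had 24.8, 70.2 and 34.05 FPKM in OXR1A-/- males and 21.4, 24.2 and 22.9 FPKM in wild-type males. In Gstm2 and Gstm4 all 3 knockout males were above the wild-type males, and knockout male 2 was far above the other 2. None of the male knockout differences was called: they were 1.64 ± 0.87 SE, adjusted p = 0.267 for Gstm3, 1.24 ± 0.80 SE, adjusted p = 0.355 for Gsta1, 1.16 ± 0.37 SE, adjusted p = 0.102 for Gstm2 and 0.46 ± 0.38 SE, adjusted p = 0.471 for Gstm1 (limma). Without knockout male 2 they were 0.20, 0.11, 0.59 and -0.17, so the direction of Gstm1 rests on that library. In knockout male 2, 4 of 6 Kupffer cell and 3 of 6 stellate markers were also the highest of the 12 libraries, against 22.3% of all genes. The same held for 1 of 6 endothelial, 0 of 6 hepatocyte, 0 of 4 tested cholangiocyte and 0 of 4 tested red cell markers. The part of these markers in the GST levels was not tested.

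NRF2 reporter genes were high in the same library. Of 11 tested reporters, 7 were highest in knockout male 2, against 22.3% of all genes. In 4 of them it was at least 1.5-fold above the next library, against 3.19% of all genes. Nqo1, a quinone reductase, had 5.45, 19.6 and 4.70 FPKM in OXR1A-/- males and 3.25, 3.78 and 3.68 FPKM in wild-type males. Srxn1, which restores peroxiredoxins, had 15.3, 39.4 and 16.6 FPKM in OXR1A-/- males and 11.1, 9.30 and 10.98 FPKM in wild-type males. Pgd, of the pentose phosphate pathway, had 52.8 FPKM in knockout male 2 and at most 26.3 FPKM elsewhere. In Nqo1 knockout male 2 was 1.93-fold above the next library, knockout female 1 at 10.1 FPKM. In Srxn1 it was 2.37-fold above knockout male 3. Cbr3, below the threshold for testing, had 11.1 FPKM in knockout male 2 and at most 0.89 FPKM in any other library. Not every reporter followed: Gclm had 92.2, 77.1 and 83.9 FPKM in OXR1A-/- males and 78.7, 53.1 and 71.7 FPKM in wild-type males, and Osgin1 was 37.7 FPKM in knockout male 2, against 102 and 64.0 FPKM in the other knockout males.

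**Figure D5:**
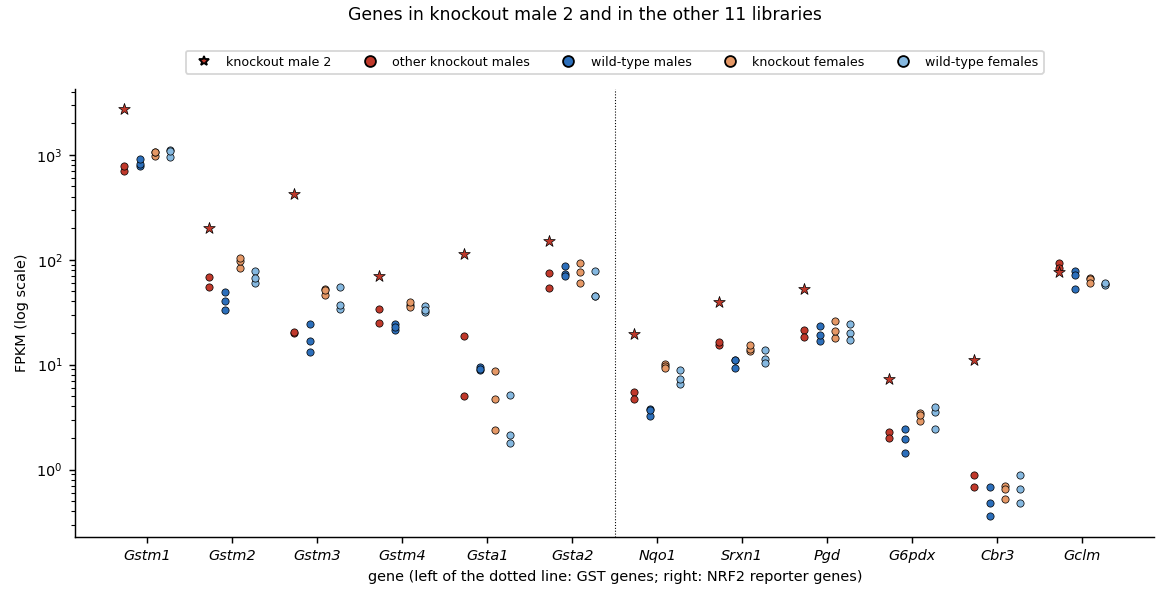
FPKM on a log axis of 6 GST genes and 6 NRF2 reporters in the 12 libraries, grouped from left to right within each gene as knockout males, wild-type males, knockout females and wild-type females, with a star for knockout male 2. The star is the highest point for all genes shown except Gclm, and reaches 424 FPKM for Gstm3. The reporters shown are a choice from 12 listed. Of those not shown, Txnrd1, Ephx1 and Slc7a11 were also highest in knockout male 2, and Hmox1, Gclc and Osgin1 were not.

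Summed over the 12 listed NRF2 reporters, OXR1A-/- males had 757 to 992 FPKM, wild-type males 590 to 667, OXR1A-/- females 513 to 535 and wild-type females 463 to 551. The sum weighs abundant genes most: in knockout male 2, Ephx1 had 442 and Gclc 197 of the 992 FPKM. It is therefore not a measure of the list as a whole. Between OXR1A-/- and wild-type males 0 of 11 tested reporters were called, with a median difference of 0.57 on the log2 scale against 0.19 for all genes. Gclc, the catalytic subunit of glutathione synthesis, had 211, 197 and 141 FPKM in OXR1A-/- males and 184, 76.7 and 123.2 FPKM in wild-type males. Its groups overlapped through wild-type male 1. Between the wild-type sexes, Ephx1, an epoxide hydrolase, was called higher and Hmox1, heme oxygenase, lower in males.

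Supply of the cosubstrates was read from further lists. Of 20 tested genes of glutathione synthesis and use, none was called between knockout and wild type in either sex, with medians of 0.14 in males and 0.04 in females. Between wild-type males and females, Glo1, which clears methylglyoxal with glutathione, was called higher (log2 difference 0.47 ± 0.12), and Cbs and Mat1a, of the route from methionine to cysteine, lower (-0.58 ± 0.12 and -0.54 ± 0.14, SE). Of 12 tested genes for making, moving or breaking down UDP-glucuronic acid, its precursors or glucuronides, including the use of glucuronate for ascorbate, none was called in either knockout comparison. Ugdh, which makes UDP-glucuronic acid, had 139.6, 158 and 117 FPKM in OXR1A-/- males and 111, 66.9 and 82.7 FPKM in wild-type males. Every knockout male was above every wild-type male, and between OXR1A-/- males and females Ugdh was called higher in males (log2 difference 0.96 ± 0.19). Of the 12, 2 were called higher and 1 lower in wild-type males than in wild-type females, against 2.31% and 11.1% of all genes. Slc35b1, a nucleotide transporter of the endoplasmic reticulum, was called higher in males in both genotypes. The gene called lower in wild type was Pgm1, a low gene with at most 3.92 FPKM in any library.

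Related enzymes outside the symbol rule included Mgst1, the microsomal glutathione transferase, which had more FPKM than any member in every library. Mgst1 had 3015, 3569 and 3815 FPKM in OXR1A-/- males, 2733, 2961 and 2529 FPKM in wild-type males, 2114, 2525 and 1888 FPKM in OXR1A-/- females and 1673, 1811 and 1661 FPKM in wild-type females. Males were above females in both genotypes (log2 difference 0.67 ± 0.14 in wild type and 0.68 ± 0.14 in knockout, both called). Mgst3 and Ptges2 were called lower in wild-type males than in wild-type females, and none of the 7 tested related enzymes was called in a knockout comparison. Among 24 regulators of these genes, none was called between knockout and wild type in either sex, and Cux2, a female-high transcription factor of liver, and Ghr, the growth hormone receptor, were called lower in wild-type males than in wild-type females. Of 15 tested genes that report CAR, PXR or AHR activity, 5 were called between OXR1A-/- and wild-type males, and none in females. Cyp2b9, Cyp2b13, Aldh1a1 and Aldh1a7 were higher, against 2.13% of all genes, and Ces2a lower, against 0.426%. The other 10, among them Cyp2b10, Cyp3a11 and Cyp1a2, were not called. The test of whether the knockout effect differed between the sexes called 1 of the 15, upwards, against 0.0174% of all genes. Most of the male calls are therefore not shown to differ from the female effect. Other scalings were not read for this list. Cyp2b9 was highest in wild-type female 3, at 448 FPKM, against 131 in knockout male 2. Cyp2b13 was highest in knockout female 2, at 292 FPKM, against 8.18 in knockout male 2.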

How the data were processed

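RNA sequencing of liver was compared over 12 libraries, 3 in each of 4 groups given by genotype and sex in the labels. The deposited values are FPKM per gene, per the file headers, with 2 decimals; the submitters' processing notes name TopHat2 and mm10, with the quantifier and annotation not given in the sources used here. Read totals were not known. Poly(A) RNA was captured, per the labels' protocols. Every sample column was used (0 set aside). Any pair of libraries shared at most 0.338% identical values, so all 12 were kept.

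A filter of 1 FPKM in 3 libraries or more left 11514 genes. On log2(FPKM + 1), limma 3.58.1 (R 4.3.3) fitted 4 group means to all 12 libraries with a variance trend. P-values were two-sided and adjusted by Benjamini-Hochberg across these 11514 genes, and a gene was called when the adjusted p was under 0.05. Differences on this scale understate low genes, and folds are ratios of mean FPKM. The test was checked on simulated data in which all libraries had equal spread. That check does not cover libraries that stand apart from their group. Of 5 comparisons, 2 set knockout against wild type within a sex, 1 tested whether those differed, and 2 set males against females within a genotype.

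Members and lists were chosen with earlier results of these data known. Named with every value were members called in any comparison and the most abundant member of each class. Promoters and coordinates are from RefSeq (GRCm38.p6), matched by Entrez number for all 41 members; transcripts are from GENCODE M21. Sequences were handled with Python 3.11.15 and Biopython 1.88.

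Alternatives changed the pseudocount (0.1), the filter (none, or a mean of 5 FPKM), the scaling, the variance model, a replicate block, the transcript length trend and the libraries. Replicate numbers did not pair the libraries.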

Additional observations from a re-analysis of the deposited data

How the results depend on the processing

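Members called as different were recounted under 24 alternatives. Between knockout and wild-type males (2 members), 3 members were called with the length trend removed (Gstp1 beside Ugt2b38 and Ugt3a1), 1 with no filter, a mean filter of 5 FPKM, median-ratio or quantile scaling, array weights and both library sets added below (Gstp1 alone without knockout male 2 and wild-type male 2), and 0 with only the male groups fitted; leaving out 1 library gave 0 to 1 (Gstp1 alone without knockout male 2). In females (0 members), array weights called 1 and leaving out a library 0. The sex difference of the knockout effect (0 members) had 0 to 1 without a library. Between wild-type sexes (12 members) leaving out a library gave 9 to 18, and between knockout sexes (6 members) 1 to 9; there, fitting only the 2 groups gave 3 and array weights 10. With either of 2 sets of libraries left out, chosen after seeing the data, the wild-type sexes gave 19 without knockout male 2 and wild-type male 2 and 8 without the 3 libraries that carried traces (knockout male 3, knockout female 1, wild-type female 1), and the knockout sexes gave 13 and 1. Every called difference of a member kept its sign in every alternative run; 396 such values stayed called and 81 did not, and the cause was not tested. Differences that were not called turned sign in at least 1 alternative for 18 of the 34 members between knockout and wild-type males, 11 between the female groups, 12 in the sex difference of the knockout effect, 5 between wild-type sexes and 7 between knockout sexes. After turning, Gstm3 between knockout sexes (0.18) was called lower in males without knockout male 2 (-1.26), and Gstm1 (0.14) without knockout male 2 and wild-type male 2 (-0.48). Other differences that turned, without a call, included Gstm1 between knockout and wild-type males (-0.17 without knockout male 2, -0.17 to 0.81 over all libraries left out 1 at a time, -0.18 also without wild-type male 2) and Ugt2b38 between knockout sexes (-0.12 without knockout male 3, -0.12 to 0.45 over all libraries left out 1 at a time, and -0.12 without the 3 trace libraries).

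Same-numbered libraries correlated from -0.32 to 0.56 in their deviations, not all above 0.1, so the numbers were not taken as pairs. With a replicate block, 1, 0, 0, 12 and 5 members were called in the comparisons in the order above; Ugt3a1 in males and Gsta3 between knockout sexes lost their call.

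Over all genes, leaving out 1 library moved the called count from 294 to between 58 and 570 in the male knockout comparison, from 1539 to between 675 and 2081 between wild-type sexes, and from 423 to between 201 and 637 between knockout sexes. With 3 libraries a group and no read totals, differences in genes near 1 FPKM, such as Ugt2b37 and Ugt2b38, are uncertain.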

Other observations

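Sulfotransferases, the other large family of liver conjugating enzymes, also differed between the sexes. Of 11 tested genes for sulfation, 6 were called lower in wild-type males than in wild-type females, against 11.1% of all genes. None was called higher, against 2.31% of all genes. The list median was -0.70 on the log2 scale against -0.21 for all genes, and other scalings were not read for this list. Sult3a1 had 0.08, 0 and 0.04 FPKM in wild-type males, against 52.0, 138 and 71.3 FPKM in wild-type females. Sult1c2 had 2.08, 1.80 and 2.13 FPKM in wild-type males, against 14.8, 12.8 and 15.1 FPKM in wild-type females. Papss2, which makes the sulfate donor, had 62.0, 37.2 and 71.9 FPKM in wild-type males, against 156, 156 and 132 FPKM in wild-type females. In each of these every male was below every female. Between OXR1A-/- and wild-type males none of the 11 was called; Sult3a1 had 1, 0.49 and 9.16 FPKM in OXR1A-/- males and 0.08, 0 and 0.04 FPKM in wild-type males, with all knockout males above the wild-type males and knockout male 3, the library with the Xist trace, far above the rest.

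Transporters of conjugates differed between the sexes in both directions. Abcg2, which exports sulfate and glucuronide conjugates into bile, had 38.5, 29.9 and 33.3 FPKM in wild-type males, against 10.4, 8.91 and 9.07 FPKM in wild-type females, and was called higher in males in both genotypes. Slco1a1, an uptake carrier of organic anions, had 13.7, 0.85 and 25.0 FPKM in OXR1A-/- males, 89.5, 52.9 and 64.1 FPKM in wild-type males, 1.45, 0.58 and 0.19 FPKM in OXR1A-/- females and 0.29, 0.29 and 0.86 FPKM in wild-type females. It was called higher in wild-type males than in wild-type females, and was not called between knockout and wild-type males although every knockout male lay below every wild-type male. Slco1a4 had 18.1, 11.6 and 17.97 FPKM in wild-type males, against 60.8, 43.9 and 59.97 FPKM in wild-type females and was called lower in males in both genotypes. Of 14 tested transporters, none was called between knockout and wild type in either sex.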
